A study of Mus musculus with 18 samples.

Results

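Circular RNAs from 3 genes of hepatic detoxification, Cyp1a2, Ces1c and Pon1, were followed through mouse livers injured with carbon tetrachloride (CCl4), with and without Pien Tze Huang (PZH), a remedy of traditional Chinese medicine. They are 3 of the 434 circular RNAs in the deposited table, 1 for each gene, and were taken by the positions of their ends. No value in the table entered that rule, but the choice was made with earlier results of these data known. Each group enrolled 15 mice and is represented here by 6. These were male C57BL/6 mice, which were 6 weeks old at the start and were sequenced in week 22, and each library is 1 mouse. Controls received water by mouth and olive oil into the peritoneum. The CCl4 group received water by mouth and CCl4 into the peritoneum. Injections of oil or CCl4 were repeated within the week in all 3 groups. The CCl4+PZH group received CCl4 in the same way and PZH by mouth every day; its sample labels write PTH, which was read as the same agent. The sources used here describe CCl4 as inducing liver cancer, but do not say whether the sampled tissue was tumour.

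A circular RNA forms when the spliceosome links a donor site backwards to an acceptor site further upstream, so that its reads cross a junction absent from the linear transcript. It is copied from the same precursor as the messenger RNA of its host gene. The 3 hosts encode enzymes that hepatocytes use against foreign compounds. Cyp1a2 is a cytochrome P450 of the liver that oxidises caffeine and aromatic amines. Ces1c is a carboxylesterase that mouse liver secretes into plasma, where it splits ester drugs. Pon1, a paraoxonase carried on high-density lipoprotein, hydrolyses lactones and the oxidised forms of organophosphates. Messenger RNA and enzyme of these genes were not analysed here, and circular RNA levels do not stand for them.

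All 3 hosts lie on the minus strand of build GRCm38: Cyp1a2 at 57676937 to 57683655 of chromosome 9, Ces1c at 93099015 to 93131283 of chromosome 8 and Pon1 at 5168090 to 5193987 of chromosome 6. The Cyp1a2 circular RNA spans 1353 bp, 20.1% of its host's 6719 bp, and lies 3316 to 4668 bp downstream of the start site. That of Ces1c is the longest, at 7920 bp or 24.5% of 32269 bp, and lies near the far end of the gene, 22710 to 30629 bp from the start. That of Pon1 spans 2259 bp, 8.72% of 25898 bp, and lies 6942 to 9200 bp from the start. For Pon1 the start site is that of the RefSeq promoter table, 41 bases inside the outer end of the annotated gene; for Cyp1a2 and Ces1c both coincide. Over all 434 circular RNAs the median span was 4691 bp. No other annotated gene overlapped any of the 3 spans, and exon positions were not used here. Ces1c is 1 of 8 Ces1 genes in a row on chromosome 8 (Ces1a to Ces1h), and reads shared between such copies make its values less certain. Pon1 lies beside Pon3 and Pon2, and Cyp1a2 beside Cyp1a1; none of these neighbours, and no other Ces1 gene, hosted a circular RNA in the table.

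**Figure D1:**
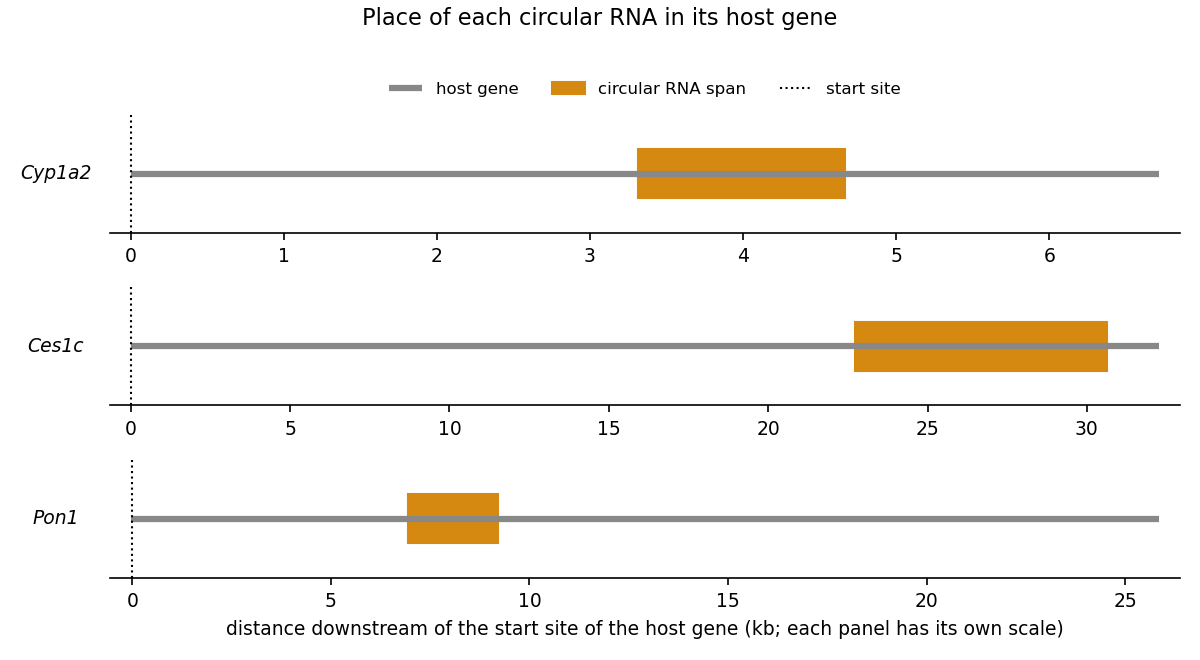
Place of the 3 circular RNAs in their host genes. The x axis is the distance in kb downstream of the host's start site, with its own scale in each panel; the grey line is the gene and the box is the span of the circular RNA, which begins 3316, 22710 and 6942 bp from the start in Cyp1a2, Ces1c and Pon1.

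A circular RNA shares the promoter of its host, and the 100 bases before each host's start site (RefSeq, GRCm38.p6, minus strand, 5′ to 3′) are shown for the 3 hosts because their values are compared below. Capitals mark matches, on either strand, to any of 5 motifs: the TATA box (TATAAA), the CCAAT box (CCAAT), the xenobiotic response element core (GCGTG), the HNF1 half-site (GTTAAT) and the nuclear receptor half-site (AGGTCA). The windows lie at chr9:57683656-57683755, chr8:93131284-93131383 and chr6:5193947-5194046.
Cyp1a2: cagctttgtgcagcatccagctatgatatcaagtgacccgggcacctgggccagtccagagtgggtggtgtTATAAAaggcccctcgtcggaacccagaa
Ces1c: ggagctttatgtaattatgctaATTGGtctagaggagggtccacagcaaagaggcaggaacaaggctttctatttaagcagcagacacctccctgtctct
Pon1: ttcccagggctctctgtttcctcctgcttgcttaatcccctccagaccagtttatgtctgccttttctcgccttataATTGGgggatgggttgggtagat
Cyp1a2 holds TATAAA 29 to 24 bases before its start, a match found in 5.56% of 32851 promoter windows of this length. Ces1c and Pon1 each hold CCAAT on the opposite strand, 78 to 74 and 23 to 19 bases before the start, a match found in 18.9% of windows. The first 41 bases before the Pon1 start site, and with them its match, lie within the annotated gene. The other 3 motifs gave no match in these 3 windows. A match describes the letters only and says nothing of a bound factor.

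The values are CPM, that is, junction reads scaled to a library total. Within a library every value was a whole-number multiple of 1 read's worth, which let the reads be recovered, and the table held 900 to 2840 reads per library and 25803 in all. Summed CPM ran from 40.4 (control 3) to 550 (control 4), while CCl4 and CCl4+PZH libraries lay between these. Because this range comes from the scale as well as from the reads, levels are also given per 1000 circular RNA reads of the same library. A value of 0 allows up to 3 reads, or 0.135 CPM in control 3 to 0.918 CPM in control 2; such limits, and the intervals on pooled reads, cover counting error only. The table lists no circular RNA with fewer than 9 of its 18 values above 0, so one found in a single group of 6 could not be listed.

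Ces1c gave the most junction reads of the 3, with 95 in all and a mean of 0.866 ± 1.45 CPM (SD, n = 18). Pon1 followed with 78 reads and 0.589 ± 0.608 CPM, and Cyp1a2 had 31 reads and 0.256 ± 0.366 CPM (SD, n = 18 each). Within libraries, Ces1c had more reads than Cyp1a2 in 14 of 18, as many in 2 and fewer in 2, and Pon1 had more than Cyp1a2 in 12, as many in 4 and fewer in 2. Ces1c and Pon1 had no such order, each being ahead in 9 libraries. By mean CPM they ranked 52nd, 94th and 265th of 434. The place of Ces1c rested on control 2, without which its mean was 0.539 ± 0.444 CPM and its rank 92nd, next to Pon1 at 0.533 ± 0.578 CPM (SD, n = 17 each). In CCl4+PZH livers Pon1 had more reads than Ces1c, 26 against 19. Ces1c was above 0 in 15 libraries, Pon1 in 14 and Cyp1a2 in 10, beside a median of 12 over all 434.

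The comparison of CCl4 with control asks how these circular RNAs differ in the injured liver. All 3 had lower mean levels in CCl4 livers, and none passed the test over all circular RNAs. The test was limma on log2(CPM + 0.137), two-sided, with Benjamini-Hochberg adjustment over all 434 and a threshold of 0.05, a scale that understates the change of low values. By this rule 3 of 434 circular RNAs (0.691%) were called, and 0 of the 3 described here. At an unadjusted p under 0.05 all 3 were lower, as were 27 of 434 (6.22%). The median log2 difference of all 434 was −0.28, and 62.9% had negative values. This background turned with the scaling: it was −0.03 with 51.8% negative when scaled to the table's own reads, −0.01 with 50.7% by quantile normalization, and 0.24 with 33.9% when each library's median was subtracted. The 3 hosts stayed negative under each, with medians of −1.46, −1.45 and −1.09 beside −1.61 without rescaling.

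Pon1 had the largest limma difference of the 3, while on the recovered reads Cyp1a2 had a larger one by edgeR with TMM (−3.10 against −2.43), by DESeq2 (−3.10 against −2.56) and by edgeR with implied totals (−3.41 against −3.09). In Pon1, controls 1, 2, 3, 4, 5 and 8 gave 7, 5, 0, 7, 8 and 19 reads, and CCl4 livers 1, 2, 4, 5, 7 and 8 gave 1, 0, 0, 1, 1 and 3. The CPM ran from 0 through a median of 1.15 to 1.93 in controls, and from 0 through 0.105 to 0.276 in CCl4 livers. Control 3 was the only control at 0, and the other 5 controls lay above every CCl4 liver. Mean levels were 1.07 ± 0.688 CPM in controls and 0.105 ± 0.103 CPM in CCl4 livers (SD, n = 6 each), a ratio of 10.2. Per 1000 circular RNA reads the means were 4.65 ± 3.50 and 0.896 ± 1.19 (SD, n = 6 each), a ratio of 5.19, and 4 of 6 controls lay above every CCl4 liver. limma gave a log2 difference of −2.04 (95% interval −3.43 to −0.65, adjusted p = 0.199), with the 8th smallest p of 434.

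The call for Pon1 turned on control 3. Without that library limma gave −2.59 (adjusted p = 0.0360), and Pon1 was 1 of 6 circular RNAs called (1.38%). Control 3 had the lowest summed CPM of the 18 libraries, and its limit for a value of 0 was also the lowest, at 0.135 CPM. It also held the fewest circular RNA reads, 900, so that per 1000 such reads its limit was the highest. Over 35 alternatives the limma, edgeR, DESeq2 and permutation values were all negative, with adjusted p from 0.0360 to 0.683, and only the fit without control 3 passed. Some alternatives, here and below, return the main log2 difference by construction and so could not change its sign. An exact permutation test of the log2 values gave p = 0.0173 (adjusted p = 0.683 over 434).

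Ces1c was above 0 in 6 of 6 controls and in 5 of 6 CCl4 livers. Controls 1, 2, 3, 4, 5 and 8 gave 10, 21, 8, 5, 6 and 10 reads, and CCl4 livers 1, 2, 4, 5, 7 and 8 gave 4, 2, 2, 6, 0 and 2. The CPM ran from 0.359 through a median of 0.992 to 6.43 in controls and from 0 through 0.283 to 0.734 in CCl4 livers, so that the ranges overlapped. Control 2 stood far above the rest in CPM, and less so per 1000 circular RNA reads, at 16.6 with control 3 next at 8.89. The means were 1.77 ± 2.31 and 0.343 ± 0.267 CPM (SD, n = 6 each), and without control 2 the control mean was 0.839 ± 0.410 CPM (SD, n = 5). Per 1000 circular RNA reads they were 7.45 ± 5.14 and 2.17 ± 1.42 (SD, n = 6 each), and 5 of 6 controls lay above every CCl4 liver. For Ces1c the log2 difference was −1.61 (95% interval −3.03 to −0.19, limma adjusted p = 0.403). It was −1.13 without control 2 (limma adjusted p = 0.771).

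Cyp1a2 was close to the limit of detection in CCl4 livers. A single read was found, in CCl4 1 (0.143 CPM), and the other 5 CCl4 livers were listed at 0. Controls 1, 2, 3, 4, 5 and 8 gave 4, 4, 2, 0, 0 and 5 reads, with 1.22 CPM as the highest value and a median of 0.299 CPM. Controls 4 and 5 at 0 overlapped the CCl4 livers. Pooled over the group, Cyp1a2 took 1 of 7386 circular RNA reads in CCl4 livers, or 0.135 per 1000 (exact 95% interval 0.00343 to 0.754), and 15 of 9529 in controls, or 1.57 per 1000 (0.881 to 2.59). These intervals cover counting error only and not the spread between livers. The mean levels were 0.0238 ± 0.0584 and 0.394 ± 0.475 CPM (SD, n = 6 each). On the log2 scale the difference was −1.26 (95% interval −2.50 to −0.03, limma adjusted p = 0.535). It was −0.88 without control 2 (limma adjusted p = 0.771) and −3.10 by edgeR on the recovered reads (adjusted p = 0.388), where no pseudocount of this size is added. Over 34 alternatives, adjusted p ran from 0.221 to 0.771.

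**Figure D2:**
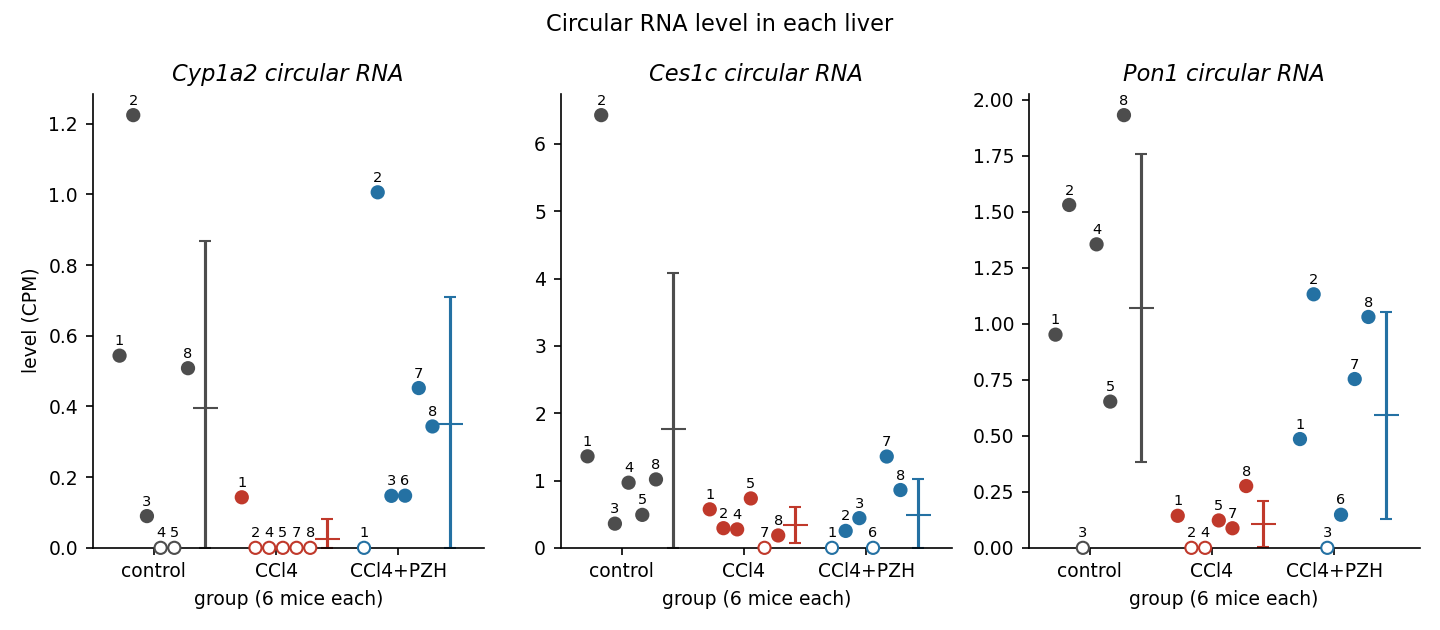
Level of each circular RNA (y axis, CPM, linear and different in each panel) in the 6 livers of each group, numbered by replicate. Open circles are values of 0 and the bar beside each group is the mean with its SD, cut at 0. For Pon1, 5 of 6 controls lie above every CCl4 liver, and for Ces1c control 2 stands apart at 6.43 CPM.

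Taken across the 3 hosts, each control held junction reads of at least 2 of them, and 3 of 6 held all 3. Of the CCl4 livers, 1 held all 3 (CCl4 1), 2 held 2 and 3 held 1. Their summed reads were 10 to 34 per control (median 17.5) and 1 to 7 per CCl4 liver (median 3.5). Control libraries held more circular RNA reads in all, 9529 against 7386. Per 1000 such reads the sums were 4.23 to 23.8 in controls (median 13.5) and 0.675 to 5.38 in CCl4 livers (median 3.23), and control 4, at 4.23, lay within the CCl4 range.

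Summed levels of cell type markers, not tested, also differed in median between the groups. Of 14 hepatocyte marker genes looked up, Slco1b2, Mug1 and Kng2 hosted 4 circular RNAs in the table. The summed level of these 4 was 0.359 to 3.68 CPM in controls (median 1.31) and 0 to 0.876 CPM in CCl4 livers (median 0.421). The 4 circular RNAs of the macrophage markers Adgre1 and Mertk, 2 of 10 looked up, summed to 0 to 2.71 CPM in controls (median 0.764) and 0.368 to 4.66 CPM in CCl4 livers (median 1.85). The other 11 hepatocyte genes, Alb and Apoa1 among them, and 8 macrophage genes, Cd68 and Csf1r among them, hosted none. The part of these differences in the values of the 3 hosts was not tested, and in whole liver fewer hepatocytes and less RNA per hepatocyte cannot be told apart.

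Comparing CCl4+PZH with CCl4 addresses the effect of the treatment. Cyp1a2 and Pon1 had higher mean levels in CCl4+PZH livers and Ces1c had similar ones, and none passed. By limma 0 of 434 circular RNAs (0%) were called, with 24 at an unadjusted p under 0.05, and edgeR and DESeq2 also called 0 (15 and 22 at an unadjusted p under 0.05). The median log2 difference of all 434 was 0.23, and 0.03, −0.0032 and −0.27 under the same 3 rescalings. This comparison and the one before share the CCl4 libraries, so that a low value there moves both in opposite directions.

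Cyp1a2 was above 0 in 5 of 6 CCl4+PZH livers and in 1 of 6 CCl4 livers. CCl4+PZH livers 1, 2, 3, 6, 7 and 8 gave 0, 8, 1, 1, 3 and 2 reads, with a median of 0.246 CPM and a highest value of 1.01 CPM in CCl4+PZH 2. The 5 livers above 0 exceeded every CCl4 liver in CPM, though CCl4+PZH 3 and 6 did so with 1 read each, the same number as in CCl4 1. Per 1000 circular RNA reads 4 of 6 lay above every CCl4 liver. Of these, CCl4+PZH 6 stood at 0.786 against 0.779 in CCl4 1, with a single read in each. Pooled, Cyp1a2 took 15 of 8888 circular RNA reads, or 1.69 per 1000 (exact 95% interval 0.945 to 2.78, counting error only). Against CCl4 the log2 difference was 1.34 (95% interval 0.11 to 2.58, limma adjusted p = 0.804), with the 12th smallest p. Over 33 alternatives it was positive, with adjusted p from 0.511 to 0.997. At an unadjusted p under 0.05, 19 of 434 circular RNAs (4.38%) were higher in CCl4+PZH, Cyp1a2 among them.

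Pon1 gave 5, 9, 0, 1, 5 and 6 reads in CCl4+PZH livers 1, 2, 3, 6, 7 and 8, against at most 3 in a CCl4 liver. The CPM ran from 0 through a median of 0.620 to 1.13, with a mean of 0.592 ± 0.462 CPM (SD, n = 6). CCl4+PZH livers 1, 2, 7 and 8 lay above every CCl4 liver, both in CPM and per 1000 circular RNA reads, while 3 and 6 lay within the CCl4 range. The ratio of the means was 5.65 in CPM and 3.26 per 1000 circular RNA reads. On the log2 scale the difference was 1.33 (95% interval −0.06 to 2.72, limma adjusted p = 0.804). Over 34 alternatives it was positive, with adjusted p from 0.511 to 0.997.

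Ces1c gave 0, 2, 3, 0, 9 and 5 reads in the same 6 livers, and the CPM ran from 0 through a median of 0.346 to 1.36. Only CCl4+PZH 7 and 8 exceeded the CCl4 livers in CPM, and 1 and 6 were listed at 0. The mean was 0.485 ± 0.534 CPM with PZH and 0.343 ± 0.267 CPM without it (SD, n = 6 each), and 2.101 ± 2.401 and 2.17 ± 1.42 per 1000 circular RNA reads. Without CCl4+PZH 7 the mean with PZH was 0.310 ± 0.358 CPM (SD, n = 5), below that without it. The log2 difference was 0.06 (95% interval −1.35 to 1.48, limma adjusted p = 0.992). Its sign changed in 9 of 34 alternatives, among them scaling to the table's own reads (−0.30) and quantile normalization (−0.33). The interval is wide enough to hold the values of Cyp1a2 and Pon1, so the 3 hosts cannot be said to have differed in their response.

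**Figure D3:**
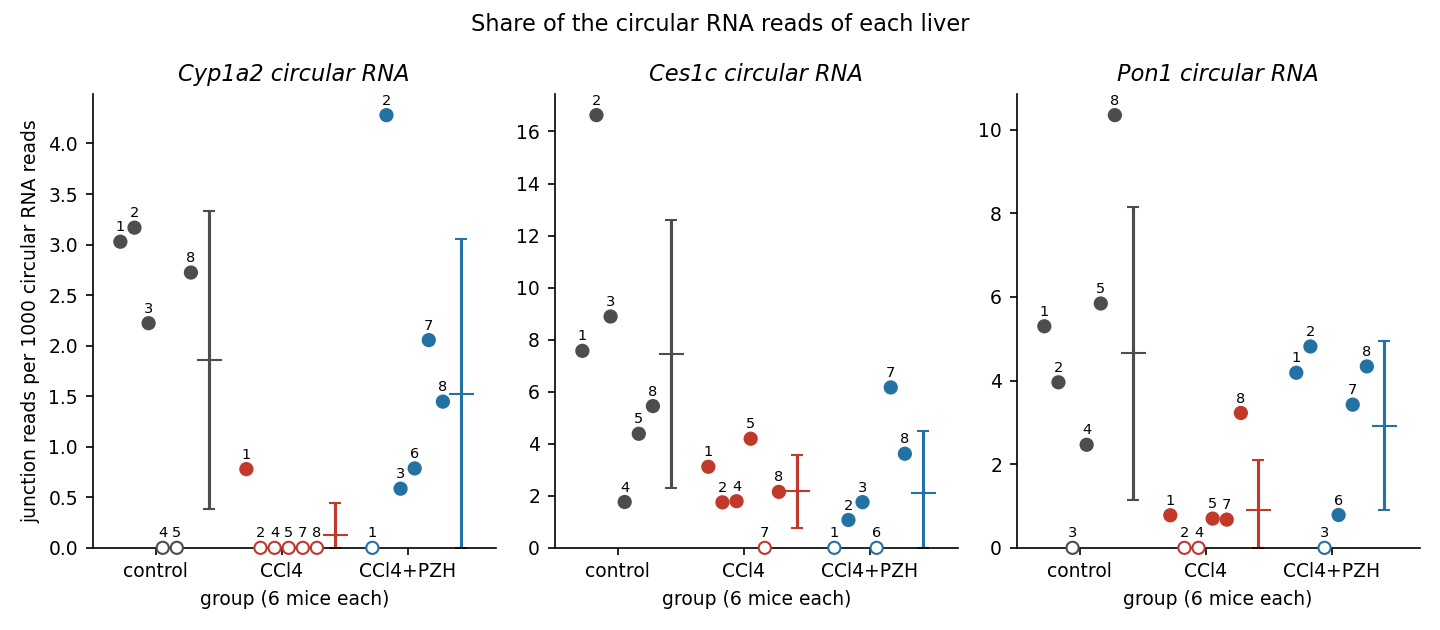
Junction reads of each circular RNA per 1000 circular RNA reads of the same library (y axis, linear, different in each panel) in the 6 livers of each group, drawn as in the plot of CPM. For Cyp1a2 the CCl4 livers lie between 0 and 0.779, and 4 of 6 livers in each of the other groups lie above them. CCl4+PZH 6 does so with a single read, at 0.786.

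The marker sums in CCl4+PZH livers were 0.252 to 2.11 CPM for the 4 hepatocyte circular RNAs (median 0.731) and 0.680 to 3.02 CPM for the 4 of macrophage genes (median 1.41). Both medians lay between those of the control and CCl4 livers, as did the mean CPM of Cyp1a2, Ces1c and Pon1. Per 1000 circular RNA reads the mean of Ces1c did not, at 7.45, 2.17 and 2.101 in control, CCl4 and CCl4+PZH livers. Other markers were highest in CCl4+PZH livers: the circular RNA of Ikzf1, the only host among 7 lymphocyte genes, had medians of 0.0816, 0.505 and 0.538 CPM in control, CCl4 and CCl4+PZH livers, and that of Mmp15, the only host among 9 stellate cell and matrix genes, had 0.119, 0.292 and 0.516 CPM. Whether cell makeup has a part in this was not tested. Summed over the 3 hosts, CCl4+PZH libraries gave 2 to 19 reads (median 9), or 1.57 to 11.6 per 1000 circular RNA reads (median 6.79). Of these libraries 3 held all 3 circular RNAs, 2 held 2 and 1 held 1.

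Comparing CCl4+PZH with control addresses what still sets treated livers apart. Ces1c had a lower mean level, and Cyp1a2 and Pon1 lay closer to the controls, though none passed. By limma 1 of 434 circular RNAs (0.23%) was called, none of these. The comparison shares its controls with the first and its CCl4+PZH libraries with the second. In the limma fit its difference is the sum of those of the other comparisons, so it is not independent of them.

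For Ces1c, 2 of 6 controls lay above every CCl4+PZH liver in CPM (1.77 ± 2.31 against 0.485 ± 0.534 CPM, SD, n = 6 each). limma gave −1.55 (95% interval −2.97 to −0.13, adjusted p = 0.763), and it was −1.07 without control 2 (adjusted p = 0.914). Over 35 alternatives it was negative, with adjusted p from 0.328 to 0.970. At an unadjusted p under 0.05, 8 of 434 (1.84%) were lower in CCl4+PZH, Ces1c among them. Per 1000 circular RNA reads, 3 of 6 controls lay above every CCl4+PZH liver, and the group means had a ratio of 3.54.

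Pon1 had 0.592 ± 0.462 CPM in treated livers and 1.07 ± 0.688 CPM in controls (SD, n = 6 each), and the ranges overlapped, with 1 liver at 0 in each group. The log2 difference was −0.71 (95% interval −2.10 to 0.68, limma adjusted p = 0.882). Cyp1a2 stood at 0.349 ± 0.359 and 0.394 ± 0.475 CPM (SD, n = 6 each), above 0 in 5 and 4 livers. In CPM single libraries carried both means: without CCl4+PZH 2 the treated mean was 0.218 ± 0.179 CPM, and without control 2 the control mean was 0.228 ± 0.274 CPM (SD, n = 5 each). Per 1000 circular RNA reads control 2, at 3.17, lay close to controls 1 and 8, at 3.03 and 2.72. CCl4+PZH 2 still stood above its group there, at 4.28 with the next at 2.05. For Cyp1a2 the log2 difference was 0.08 (95% interval −1.15 to 1.32, limma adjusted p = 0.988), with a sign that changed in 15 of 34 alternatives. The intervals do not show that treated and control livers were alike: for Cyp1a2 they hold differences of more than 1 log2 unit either way.

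**Figure D4:**
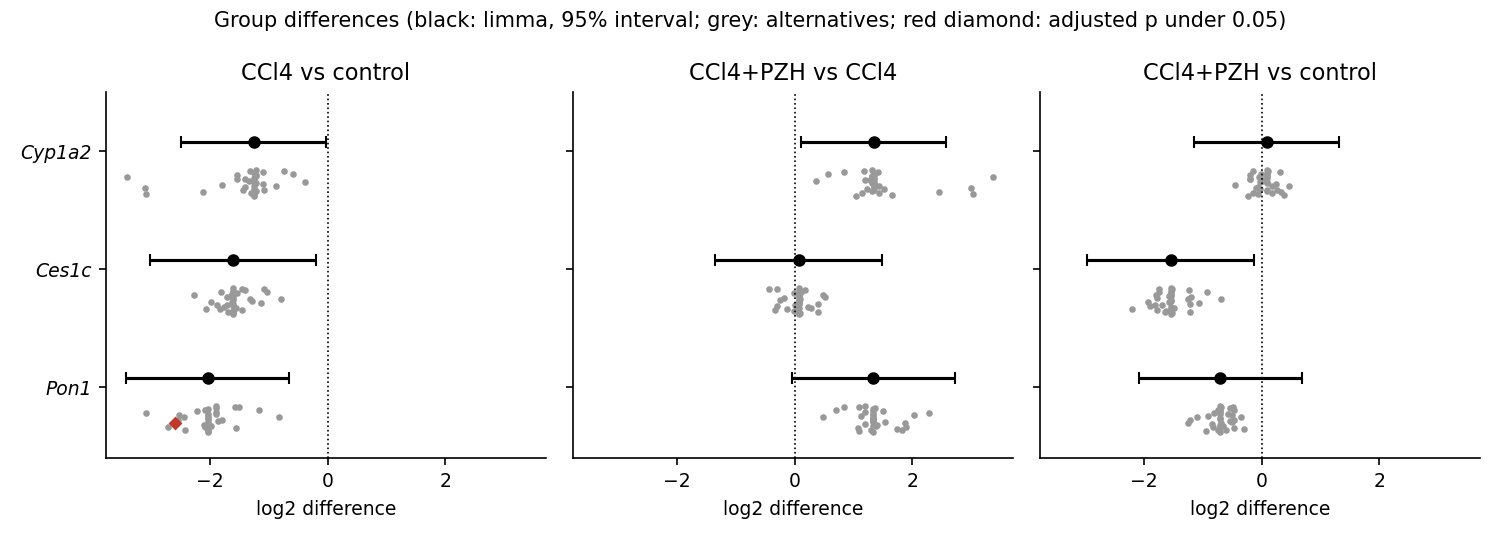
Log2 difference between groups (x axis) for the 3 circular RNAs in the 3 comparisons. Black points and bars are the limma values with 95% intervals, grey points are the alternatives and the red diamond is the only one past the threshold, Pon1 in CCl4 against control without control 3 (−2.59).

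Controls 2, 3 and 4 carry later accessions than the other 15 libraries, which does not say when they were prepared. Controls 2, 3 and 4 also lay outside the CPM scale of the other 15. In them 1 read was worth 0.306, 0.0449 and 0.194 CPM, against 0.0816 to 0.172 CPM elsewhere. Control 3 held the fewest circular RNA reads, 900, and control 4 the most, 2840. What these extremes add to the differences was not tested. With controls 1, 5 and 8 alone, CCl4 against control gave −2.44 for Pon1 (limma adjusted p = 0.195), −1.32 for Ces1c (adjusted p = 0.658) and −1.35 for Cyp1a2 (adjusted p = 0.658). CCl4+PZH against these 3 controls gave −1.11, −1.26 and −0.00239 by limma (adjusted p = 0.778, 0.729 and 0.999).

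Of 187 genes on a list of oxidising enzymes, hydrolases, conjugating enzymes and their regulators, 6 (3.21%) hosted a circular RNA in the table, 1 each, beside 367 of 21900 protein-coding genes (1.68%). The 6 include the 3 genes described, which were chosen from the table. That choice raises the share, which therefore cannot be set against that of all genes, and it enters the counts over the 6 below. The conjugating enzymes, with 65 genes, and the regulators, with 9, hosted none. Beside the 3 genes described, the hosts were Cyp2c70, a cytochrome P450 of bile acid metabolism, Fmo5, a flavin-containing monooxygenase, and Dpyd, which breaks down pyrimidines. Their circular RNAs, not the genes, span 40160555 to 40167623 of chromosome 19 (Cyp2c70), 97635511 to 97645920 of chromosome 3 (Fmo5) and 118781836 to 118811267 of chromosome 3 (Dpyd). In CCl4 against control 5 of the 6 had negative values with a median of −0.95, beside 62.9% negative and a median of −0.28 over all 434. The 3 genes described were the lowest of the 6, at −2.04, −1.61 and −1.26 for Pon1, Ces1c and Cyp1a2. Cyp2c70, Fmo5 and Dpyd had −0.63, −0.06 and 0.29, so the low median rests on the 3 genes described. With medians subtracted 4 of 6 were negative (median −0.42). In CCl4+PZH against CCl4 4 of 6 were positive (median 0.47, and 0.23 over all). This count was 3 of 6 under each of the 3 rescalings, with medians of 0.23 for the table's own reads, 0.19 by quantile normalization and −0.03 with medians subtracted. In CCl4+PZH against control 4 of 6 were negative (median −0.47, and 0.02 over all), and 5 of 6 by the table's own reads or quantile normalization. None of the 6 passed in any comparison (0.691%, 0% and 0.23% called over all).

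Mean levels of Cyp2c70 were 0.382 ± 0.554, 0.150 ± 0.184 and 0.0945 ± 0.177 CPM in control, CCl4 and CCl4+PZH livers (SD, n = 6 each), with control 1 alone at 1.50 CPM. Its log2 differences were −0.63 for CCl4 against control, −0.31 for CCl4+PZH against CCl4 and −0.94 for CCl4+PZH against control (limma adjusted p = 0.795, 0.969 and 0.763). Fmo5 had 0.134 ± 0.126, 0.141 ± 0.175 and 0.117 ± 0.192 CPM in the 3 groups (SD, n = 6 each), and log2 differences of −0.06, −0.18 and −0.24 in the same order (limma adjusted p = 0.982, 0.992 and 0.967). Dpyd ran the other way, with 0.163 ± 0.310, 0.242 ± 0.364 and 0.463 ± 0.396 CPM (SD, n = 6 each) and log2 differences of 0.29, 0.88 and 1.17 (limma adjusted p = 0.896, 0.851 and 0.763). It was above 0 in 2 controls, 3 CCl4 and 5 CCl4+PZH livers.

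**Figure D5:**
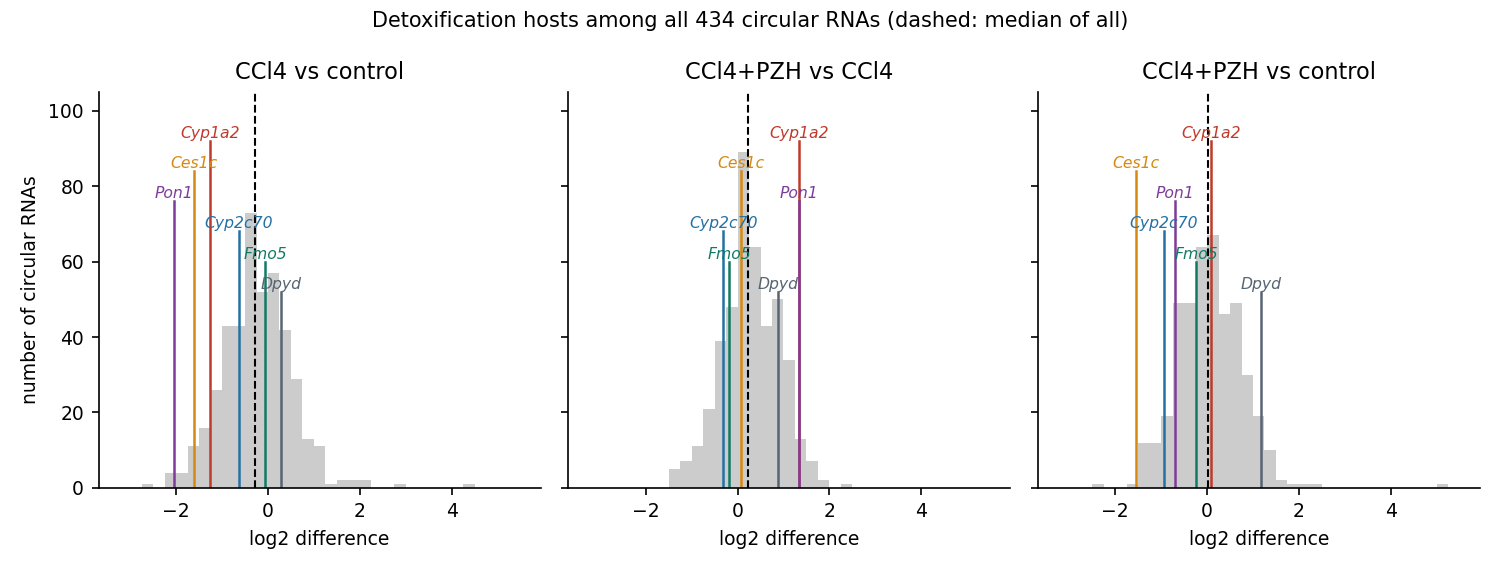
Log2 differences (x axis) of all 434 circular RNAs as a histogram (y axis, number of circular RNAs) in the 3 comparisons, with lines at the 6 detoxification hosts and a dashed line at the median of all. In CCl4 against control Pon1, Ces1c and Cyp1a2 lie at −2.04, −1.61 and −1.26, on the lower side of the median of −0.28.

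Patterns over the 18 libraries were compared on log2 shares of each library's circular RNA reads, with the share of a single read added. The CPM total drops out, but the library's circular RNA reads remain in every value, above all where a host had no reads. How far the correlations come from that common term was not tested, and they are given as a description. Among the 3 hosts Pearson's r was 0.51 for Cyp1a2 with Ces1c, 0.39 for Cyp1a2 with Pon1 and 0.27 for Ces1c with Pon1 (n = 18 libraries). On the CPM scale, where all circular RNAs of a library share its scale, these were 0.66, 0.62 and 0.52. The circular RNAs most like Cyp1a2 by share lay in Ttc39c (12684837 to 12689887 of chromosome 18, r = 0.77) and Rmnd5a (71413250 to 71414919 of chromosome 6, r = 0.73). Those most like Ces1c lay in Mettl9 (121052087 to 121057399 of chromosome 7, r = 0.63) and Elovl5 (77957141 to 77961053 of chromosome 9, r = 0.56). Those most like Pon1 lay in Tmem245 (56906215 to 56912130 of chromosome 4, r = 0.58) and Man1a (54014415 to 54030794 of chromosome 10, r = 0.56). These are the highest of up to 433 values for each host, from counts with many zeros. The positions given are those of the circular RNAs, not of the genes.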

How the data were processed

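Liver RNA depleted of ribosomal RNA was sequenced from both ends (150 bp reads), per the labels' protocols. The authors deposited CPM values of back-splice junction reads for 434 circular RNAs in 18 libraries. FastQC 0.11.9, cutadapt 4.2, HISAT2 2.2.1, StringTie 2.1.5, Bowtie2 2.5.1 and build GRCm38 are named, per the submitters' processing notes. For the circular RNA caller, the filter and the CPM total the sources used here give nothing. Of 7812 values, 100% lay within 0.1 of a whole read. Over 45 pairs within groups, no 2 libraries agreed within sampling noise (lowest chi-square per degree of freedom 2.11).

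Hosts are the genes of GRCm38.p6 that contain both ends, found for 429. limma 3.58.1 (R 4.3.3) fitted 3 group means over 18 libraries with an intensity trend, after a filter (above 0 in 6 libraries) that removed 0. The pseudocount was the median, across libraries, of each library's lowest CPM above 0. Alternatives were other pseudocounts, filters, scalings and weights, edgeR 4.0.16 and DESeq2 1.42.0 on recovered reads, exact permutation, a replicate block, subsets of controls and each library left out. Tests were checked on simulated data. Python 3.11.15 was used for the rest.

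The members, gene lists and tests were chosen with earlier results of these data known. Named circular RNAs were the 3 members, others with hosts on the detoxification list, and the 2 of highest correlation with each member.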

Additional observations from a re-analysis of the deposited data

Results flagged for a closer look

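Over 18 groups of 6 values (6 detoxification hosts in 3 groups), 5 had a liver whose gap to its nearest neighbour exceeded the 95% limit of Dixon's test, where about 1 in 20 (0.9) is the number for normal data. Values with this many zeros are not normal, so the numbers cannot be compared. The test was run on CPM only. For Ces1c, control 2 stood at 6.43 CPM (21 reads) and the next control at 1.36 CPM. For Cyp1a2, CCl4 1 stood at 0.143 CPM, a single read, with the other 5 at 0. For Cyp2c70, control 1 stood at 1.50 CPM (11 reads) and the next at 0.305 CPM, and CCl4+PZH 3 stood at 0.441 CPM (3 reads) and the next at 0.126 CPM. For Dpyd, control 4 stood at 0.774 CPM (4 reads) and the next at 0.203 CPM.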

How the results depend on the processing

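Of 309 values under alternatives, 284 kept their direction and their side of the threshold, 24 changed sign and 1 came to pass. Some could not change direction, because they return the main log2 difference by construction. These were the fits with no filter or the filter at 12 libraries, exact permutation, the compared groups alone, and leaving out a library of the group not compared. The 284 therefore overstate how stable the values are. The 1 that came to pass was Pon1 in CCl4 against control, which ran from −2.59 (without control 3) to −1.81 with each library left out. Ces1c in CCl4+PZH against CCl4 (0.06) was −0.14 with 0.25 times the pseudocount, −0.30 when scaled to the table's own reads, −0.33 with quantile normalization and −0.44 with each library's median subtracted, and ran from −0.30 to 0.39 with each library left out. Cyp1a2 in CCl4+PZH against control (0.08) was −0.0154 with 4 times the pseudocount and −0.0220 with 1 CPM, −0.14 when scaled to the table's own reads, −0.15 with quantile normalization, −0.0679 by edgeR with TMM, −0.0390 by edgeR with implied totals, −0.10 by DESeq2 and −0.00239 with controls 1, 5 and 8 only. It was −0.45 without controls 3 and 4 together, and ran from −0.23 to 0.46 with each library left out. The cause of these changes of sign was not tested.

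In CCl4 against control the number called, 3, became 9 with each library's median subtracted, 5 when scaled to the table's own reads or by edgeR with TMM, 1 with 4 times the pseudocount, with 1 CPM, with edgeR and implied totals or with the filter at 12 libraries (237 tested), and 0 by exact permutation (29 at an unadjusted p under 0.05). The 1 called in CCl4+PZH against control became 3 with array weights, 2 with edgeR by either total and 0 by permutation (16 at an unadjusted p under 0.05) or with the filter at 12 libraries. With each library left out these counts ran from 1 to 6 and from 1 to 3, and that of CCl4+PZH against CCl4 was 0 throughout. The smallest p that permutation can give is 0.00216, which cannot pass over 434 tests unless many reach it. Cyp1a2, above 0 in 10 libraries, was not tested with the filter at 12.

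Replicate numbers are shared between groups, but same-numbered libraries did not deviate together: correlations ran from −0.04 to 0.08 over 5 pairs for CCl4 against control, from −0.15 to −0.02 over 4 pairs for CCl4+PZH against CCl4 and from −0.07 to 0.05 over 4 pairs for the third, so the numbers were not taken as pairs. With replicate number as a block, limma called 1 in CCl4 against control, Pon1 was −2.54 (adjusted p = 0.0804) and Cyp1a2 in CCl4+PZH against control was −0.20. The alternatives of edgeR with implied totals and of leaving out controls 3 and 4 together were chosen after seeing the data. Depth limits all of this, since the 3 hosts rest on 31, 95 and 78 reads.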
